A study of Mus musculus with 6 samples.

Results

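The MYC family and its partner genes were examined in mouse LSK cells. This bone marrow fraction lacks lineage markers, carries Sca1 and c-Kit, and contains the blood stem cells and early progenitors. The members were Myc, Mycn, Mycl, Max, Mxd1, Mxd3, Mxd4, Mxi1 and Mnt, taken as every probe set of the array whose platform annotation names 1 of these genes and no other. The rule gave 22 probe sets for 9 genes, of 45037 probe sets for 18193 genes in all. A probe set measures 1 transcript region, and a gene can have several.

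The SRF-null group held 3 arrays from C57BL/6 mice of genotype Srf flx/flx;Mx1-Cre, in which both Srf alleles can be cut by the interferon-inducible Mx1-Cre recombinase, and the control group held 3 arrays from C57BL/6 mice of genotype Srf+/+;Mx1-Cre. All mice of both groups carried the Cre transgene and received pIpC, a double-stranded RNA that induces interferon, as 3 doses of 200 µg at intervals of 2 days starting at an age of 6 weeks, and were analysed 35 days after the last dose. Mx1-Cre acts in every cell type that responds to interferon, so deletion was not limited to LSK cells. RNA came from sorted cells of pooled animals, pool sizes are not stated in the labels, and the p-values therefore measure only the spread between these pools.

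MYC proteins are transcription factors of the basic helix-loop-helix leucine zipper class. They bind E-box DNA only as heterodimers with MAX and activate genes of growth, ribosome production and cell division. MXD1, MXD3, MXD4, MXI1 and MNT compete for MAX and recruit SIN3 and histone deacetylases to the same sites, and are thus the antagonists of MYC. In blood formation, MYC and MYCN act together in stem cell survival and in the balance between self-renewal and differentiation, as known from mouse knockouts. SRF, the deleted factor, binds CArG boxes at actin cytoskeleton and immediate early genes.

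The promoter windows of the members are shown first because the deleted factor is a DNA-binding protein and the MYC network acts through E-boxes. RefSeq windows of 300 bases (GRCm38.p6, 250 bases before to 50 after a gene's start) were matched by symbol for 8 of the 9 members, with 10 windows in all, since Mxi1 has 3. Myc is not among them. A consensus CArG box was found in 0 of the 10 windows, and in 1.63% of the 32851 windows of the whole table. At so low a share, 0 of 10 does not set the members apart from other genes. The core E-box CACGTG, which reads the same on both strands, was found in 3 of the 10 windows, those of Max, Mxd4 and Mnt, and in 7.15% of all windows. They are printed with 16 bases on each side and the E-box in capitals.
Max, chr12:76962230-76962267, minus strand, E-box from base -3 relative to the start: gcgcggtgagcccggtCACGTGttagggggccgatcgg
Mxd4, chr5:34187908-34187945, minus strand, E-box from base -219: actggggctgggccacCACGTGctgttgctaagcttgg
Mnt, chr11:74830785-74830822, plus strand, E-box from base -123: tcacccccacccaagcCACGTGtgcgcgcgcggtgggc

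The Mycn window is given whole because Mycn held the members' smallest p-values. It had no CArG box and no CACGTG, but it held 2 copies of TTTGGCGC, a form of the E2F binding site (both strands searched, no overlap with the other motifs), from bases -183 and -168. This motif was in 0.514% of all windows and in no other window of a member. The copies are in capitals.
Mycn, chr12:12941787-12942086, minus strand: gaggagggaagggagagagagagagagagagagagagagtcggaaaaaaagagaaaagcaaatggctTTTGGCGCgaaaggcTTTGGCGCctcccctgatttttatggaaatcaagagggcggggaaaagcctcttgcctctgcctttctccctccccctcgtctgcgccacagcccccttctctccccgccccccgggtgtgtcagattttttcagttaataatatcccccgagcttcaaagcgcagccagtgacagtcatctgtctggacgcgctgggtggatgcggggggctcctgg
A match describes these letters in this window and is no evidence of binding.

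Median signals were 218.4 to 270.2 on SRF-null arrays and 200.5 to 292.1 on control arrays. The log2 difference between 3' and 5' control probe sets of Actb was taken as a measure of RNA integrity. It was 1.00, 1.51 and 0.93 on SRF-null arrays 1 to 3, and 1.18, 1.45 and 1.35 on control arrays 1 to 3. For Gapdh it was 0.95, 1.16 and 0.67, and 0.97, 1.20 and 0.99. The part of RNA integrity in the differences below was not tested. Levels below are quantile-normalized log2(signal + 16), differences are SRF-null minus control, and tests are two-sided limma tests adjusted over all 45037 probe sets by the Benjamini-Hochberg method. Over the whole array 0 probe sets passed an adjusted p of 0.05 (0% called), the smallest adjusted p was 0.438, and 1975 probe sets (4.39%) had an unadjusted p under 0.05. Srf itself averaged 12.60 ± 0.19 in SRF-null cells and 13.03 ± 0.02 in control cells on its brighter probe set (SD, n = 3 each), and the dimmer probe set differed by 0.10 (SE 0.35). The labels do not say whether these probe sets lie in the deleted part of the gene. The Y-linked gene Kdm5d was at the floor of the scale on control replicate 2. SRF-null replicate 1 was low in Xist (5.03, against 15.13 to 16.24 on the other arrays). These 2 pools thus had transcripts of 1 sex and the other 4 of both. Kdm5d was at 11.84 to 11.98 on SRF-null arrays, against 10.54 and 10.57 on control replicates 1 and 3. The Y-linked genes Uty and Eif2s3y were also higher on every SRF-null array than on every control array. Leaving out the 2 single-sex arrays therefore did not even out Y-linked transcripts between genotypes. Arrays of equal replicate number deviated together from their group means (correlations of 0.473, 0.210 and 0.427) and were paired by number on that ground. The pairing thus comes from the same values that the paired results below use, and arrays of unequal number were not compared. The labels state no pairing. SRF-null replicate 1 and control replicate 2 each share their number with a pool of both sexes.

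Of 10 LSK marker genes 4 were higher and 6 lower in SRF-null cells, with a median of -0.14 and a mean level of 14.58 to 15.16 on SRF-null arrays and 14.98 to 15.37 on control arrays. The stem cell factor receptor gene Kit was at 14.89 ± 0.08 in SRF-null and 15.09 ± 0.31 in control cells, and Cd34 at 16.85 ± 0.10 and 16.74 ± 0.03 (SD, n = 3 each). The stem cell marker Slamf1 was at 11.61, 10.73 and 9.18 on the SRF-null arrays, against 11.60, 12.33 and 11.80 on the control arrays. The mean level of 11 T and NK cell markers was 7.23 to 8.23 on the SRF-null arrays and 6.65 to 7.29 on the control arrays, with 10 of 11 higher. That of 10 monocyte and macrophage markers was 9.77 to 11.32 and 9.38 to 10.08, with 9 of 10 higher. An unadjusted limma p under 0.05 was found for 4 of 11 and 5 of 10 genes of these lists, all higher. It was found for 901 of all 18193 genes, and 0 markers passed adjustment. The genes of smallest p were Cd7 (1.74, SE 0.28) and Klrd1 (1.42, SE 0.39), and Ctss (0.75, SE 0.19) and Mrc1 (2.08, SE 0.55), without overlap. Of the other marker lists, 7 of 8 erythroid, 6 of 8 megakaryocyte, 6 of 8 B cell, 5 of 7 dendritic cell, 5 of 8 granulocyte, 3 of 6 mast cell and basophil, and 6 of 10 stromal genes were higher. An unadjusted limma p under 0.05 was also found for 2 erythroid, 1 megakaryocyte and 1 dendritic cell gene, all higher. It was found for 1 mast cell and basophil gene, lower, and for 3 stromal genes, 1 higher and 2 lower. The LSK, B cell and granulocyte lists had 0 such genes. Of the T cell receptor complex genes, Cd3e was at 4.38, 7.54 and 7.51 on SRF-null arrays, against 5.47, 4.10 and 5.58 on control arrays, and Cd3d at 4.33 to 5.05 and 4.24 to 4.98. Cd3g was under a signal of 16 on every array. In a mixed fraction, fewer cells of a type and less RNA per cell cannot be told apart, and the part of these markers in the differences below was not tested.

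Mycn stood lowest in SRF-null cells among the genes that encode activators, on both of its probe sets with measurable signal. On the brighter one the deposited signals were 24595, 25531 and 22275 on SRF-null arrays 1 to 3, against 39603, 53884 and 29999 on control arrays 1 to 3. Every SRF-null array lay below every control array, and the spread was wider among controls. Normalized levels were 14.57 ± 0.11 in SRF-null and 15.28 ± 0.41 in control cells (SD, n = 3 each), a difference of -0.71 (SE 0.23, 1.64-fold, 95% interval -1.27 to -0.15). The second probe set had signals of 944.9, 514.9 and 910.7 on SRF-null arrays, against 2466, 1697 and 1066 on control arrays, again without overlap. Its difference was -1.09 (SE 0.33, 2.13-fold, 95% interval -1.91 to -0.28). The unadjusted limma p-values were 0.0213 and 0.0170, and the adjusted p was 1 for both, so neither passed. The remaining Mycn probe set was under a signal of 16 on every array and gave no usable value. Without the 2 single-sex arrays the differences were -0.51 and -1.15. Both probe sets were lower in SRF-null cells within all 3 numbered pairs, which follows from the lack of overlap and adds nothing to it.

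These were the only 2 of 22 member probe sets whose groups did not overlap, and the only 2 with an unadjusted limma p under 0.05. Over the whole array 9.24% of probe sets did not overlap (4.74% higher and 4.5% lower in SRF-null cells), and 4.39% had such a p (2.37% higher and 2.02% lower). Both belong to 1 gene, and the counts are near these backgrounds. With the replicate number as a block in limma, 5 of 22 member probe sets had an unadjusted p under 0.05, against 7.08% of all probe sets. They were both Mycn probe sets and 1 each of Mycl, Mxd3 and Mxi1, and the smallest adjusted p among members was 0.632. In 8 of 22 the 3 numbered pairs differed in the same direction, against 28.2% of all probe sets.

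Myc, the widely expressed founding member, was variable between SRF-null pools. Its signals were 10928, 6906 and 17142 on SRF-null arrays, against 16661, 20264 and 13169 on control arrays. SRF-null replicates 1 and 2 lay below every control array, whereas SRF-null replicate 3 lay between the controls. Levels were 13.43 ± 0.64 in SRF-null and 13.99 ± 0.30 in control cells (SD, n = 3 each), and the difference of -0.55 (SE 0.35, 95% interval -1.42 to 0.31, limma adjusted p = 1) did not exceed this spread. It was -0.24 without SRF-null replicate 2 and -0.88 without SRF-null replicate 3, so single pools set its size.

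Mycl, first found as an amplified gene in human lung cancer, had low signals, with its highest value in 1 SRF-null pool. The 1 probe set with signal above 16 on all arrays read 108.8, 159.2 and 469.7 on SRF-null arrays, against 63.5, 81.4 and 105.4 on control arrays. SRF-null replicate 3 was far above the rest, and SRF-null replicate 1 was close to control replicate 3. On the normalized scale, where SRF-null replicate 1 (6.85) lay below control replicate 3 (7.12), the groups overlapped. The difference was 1.14 (SE 0.59, 2.20-fold, limma adjusted p = 1), and 0.52 without SRF-null replicate 3. With the replicate block its unadjusted limma p was 0.0153 and its adjusted p was 0.632. The other 2 Mycl probe sets were under a signal of 16 on every array.

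Max, the obligate partner of all the other members, had the smallest standard error of the measurable member probe sets. Its signals were 44214, 38693 and 43908 on SRF-null arrays, against 44998, 41951 and 42346 on control arrays, and the groups overlapped throughout. The difference was -0.02 (SE 0.12) with a 95% interval of -0.32 to 0.28, which bounds the difference but does not show equality.

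**Figure D1:**
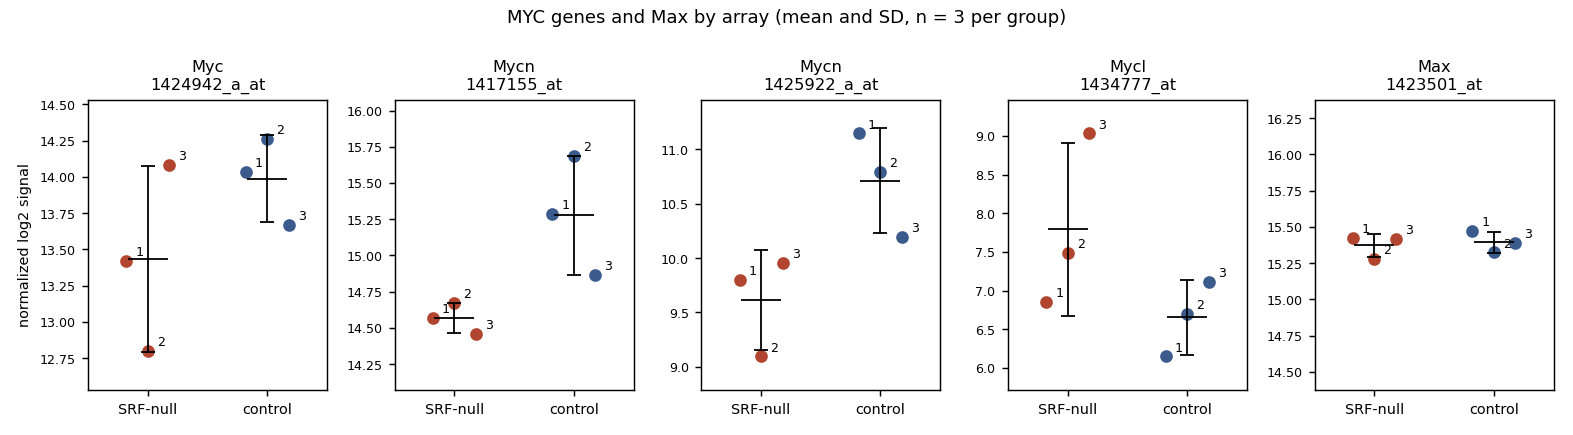
Normalized log2 signal of the Myc, Mycn, Mycl and Max probe sets with a signal of 16 or more on every array. Points are arrays with their replicate number, SRF-null left and control right, and bars are mean and SD (n = 3 each). Both Mycn panels show SRF-null arrays below all control arrays, while Myc, Mycl and Max overlap.

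Among the antagonists, Mxd3, which is known to be expressed in dividing cells, differed most, on its dimmer probe sets. The second brightest Mxd3 probe set had signals of 753.9, 1362 and 891.5 on SRF-null arrays, against 277.2, 518.1 and 685.3 on control arrays. All SRF-null signals were above all control signals before normalization, but after it SRF-null replicate 1 (9.45) lay below control replicate 3 (9.60). The difference was 1.05 (SE 0.49, 2.08-fold, 95% interval -0.15 to 2.26, limma adjusted p = 1). Without control replicate 1, the lowest array, it was 0.57. The dimmest Mxd3 probe set differed by 0.51 (SE 0.26), and the brightest by only 0.13 (SE 0.18), with levels of 15.21 ± 0.22 in SRF-null and 15.07 ± 0.21 in control cells (SD, n = 3 each). The 3 probe sets thus shared a sign and not a size. Cell cycle genes were measured beside it, and 12 of 17 were higher, with a median of 0.08 and 0 past the threshold. Without control replicate 1 this was 8 of 17 with a median of -0.028, and without SRF-null replicate 3 it was 9 of 17 with a median of 0.016. The mitotic gene Hmmr differed by 0.70 (SE 0.32) and the cyclin genes Ccnb2 by 0.51 (SE 0.25) and Ccna2 by 0.29 (SE 0.19). The topoisomerase gene Top2a differed by 0.24 (SE 0.16), and in each of these genes the groups overlapped. The 5 lower genes all serve DNA replication: Mcm4 (-0.12), Mcm6 (-0.12), Pcna (-0.08), Mcm3 (-0.04) and Tyms (-0.02). The replication genes Mcm5 (0.10) and Mcm2 (0.01) were among the higher ones, so the list did not move as a whole.

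Mxi1, an antagonist also named MXD2 in older work on the family, differed little on its bright probe set, which had signals of 34967, 36053 and 28244 on SRF-null arrays, against 30145, 31580 and 30883 on control arrays, and the SRF-null values spread around a tight control group. The difference was 0.11 (SE 0.15). The dimmer Mxi1 probe set had signals of 213.9, 267.4 and 263.7 on SRF-null arrays, against 180.1, 176.3 and 171.3 on control arrays. Its signals did not overlap, but the normalized values did, and the difference was 0.44 (SE 0.21, limma adjusted p = 1). It was higher in SRF-null cells within each numbered pair, by 0.34, 0.50 and 0.47.

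Mxd4 was the antagonist with most probe sets, and its 2 dimmer ones showed next to no difference. Its 2 brighter probe sets differed by -0.20 (SE 0.21) and -0.24 (SE 0.16), and its 2 dimmer ones by 0.01 (SE 0.27) and 0.01 (SE 0.26). On the brightest, signals were 39847, 52183 and 35370 on SRF-null arrays, against 51292, 42124 and 52136 on control arrays. SRF-null replicate 2 matched the highest controls and control replicate 2 lay among the SRF-null values.

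Mxd1, the antagonist that accompanies terminal differentiation of myeloid cells, also overlapped between genotypes. Its brightest probe set had signals of 14836, 16880 and 11594 on SRF-null arrays, against 16337, 12022 and 15621 on control arrays, a difference of 0.01 (SE 0.21, 95% interval -0.51 to 0.52). The second differed by 0.29 (SE 0.21), with control replicate 2 as the lowest array, and by 0.08 without that array. Mnt, the antagonist expressed in both resting and dividing cells, had signals of 30493, 31621 and 27772 on SRF-null arrays, against 31636, 33193 and 26266 on control arrays. Its difference was -0.01 (SE 0.15, 95% interval -0.37 to 0.35). The remaining Mxd1 and Mnt probe sets were under a signal of 16 on every array.

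**Figure D2:**
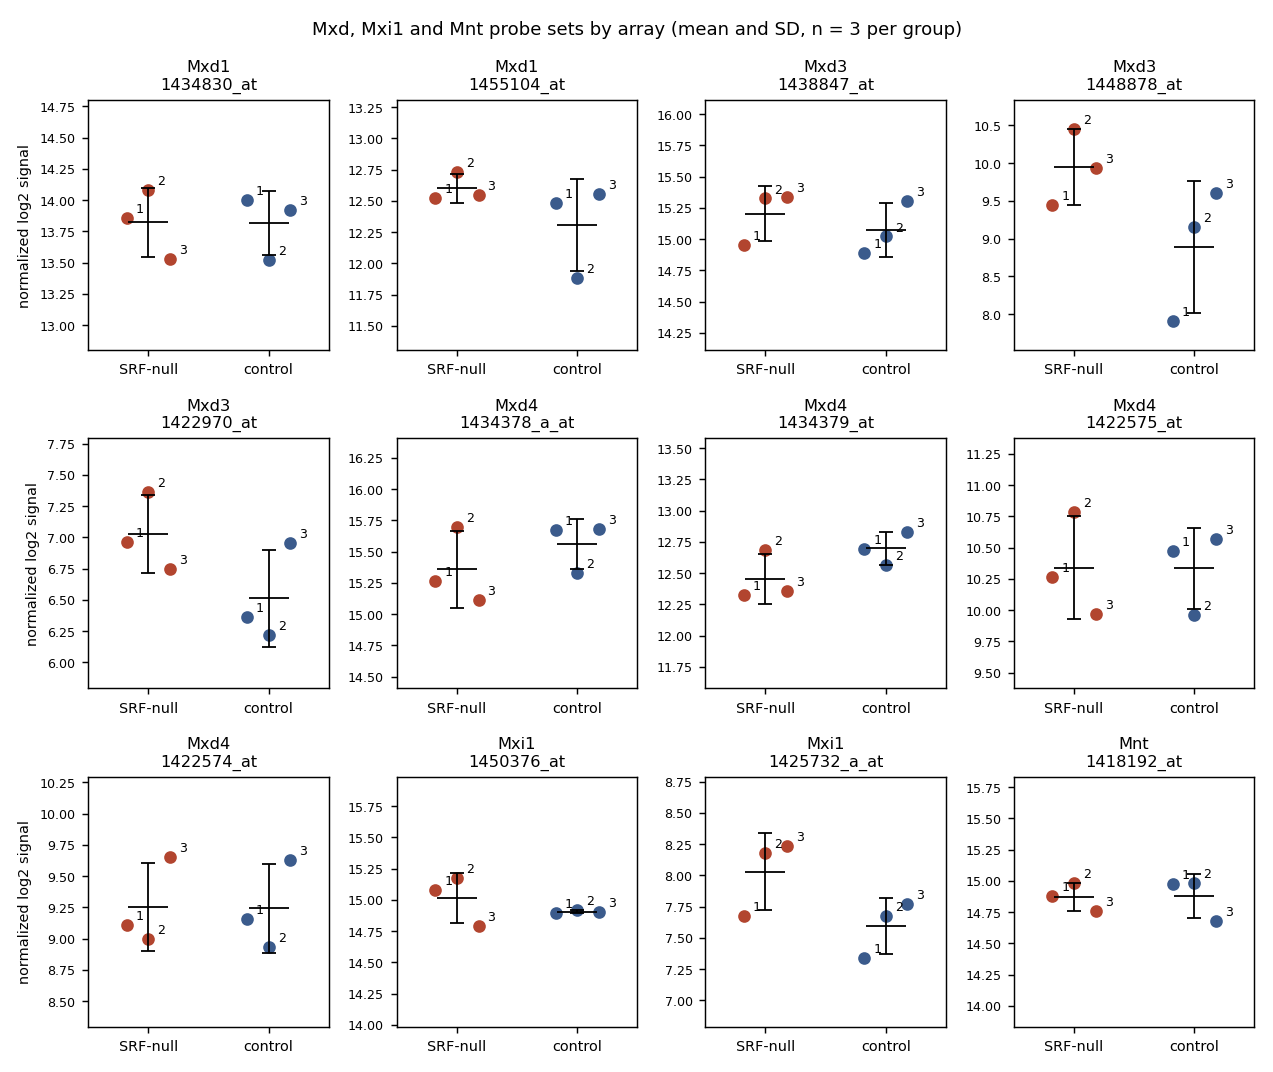
Normalized log2 signal of the 12 Mxd1, Mxd3, Mxd4, Mxi1 and Mnt probe sets with a signal of 16 or more on every array, SRF-null left and control right. Points carry the replicate number and bars are mean and SD (n = 3 each). The groups overlap in all 12 panels.

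Counted by role, 3 of the 4 measurable activator probe sets were lower in SRF-null cells and 9 of the 12 measurable antagonist probe sets higher, with medians of -0.63 and 0.06. Of the 9 antagonist probe sets, 3 differed by 0.01 or less after rounding, and 6 of 12 were higher under median centring and under no further normalization. Leaving out 1 array gave 7 to 9 of 12. Over the 29982 probe sets of the array with the same signal limit, 14909 were higher and 15073 lower. Probe sets of 1 gene share their transcript, and 2 of the activator probe sets are those of Mycn, so the counts describe 3 and 5 genes.

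**Figure D3:**
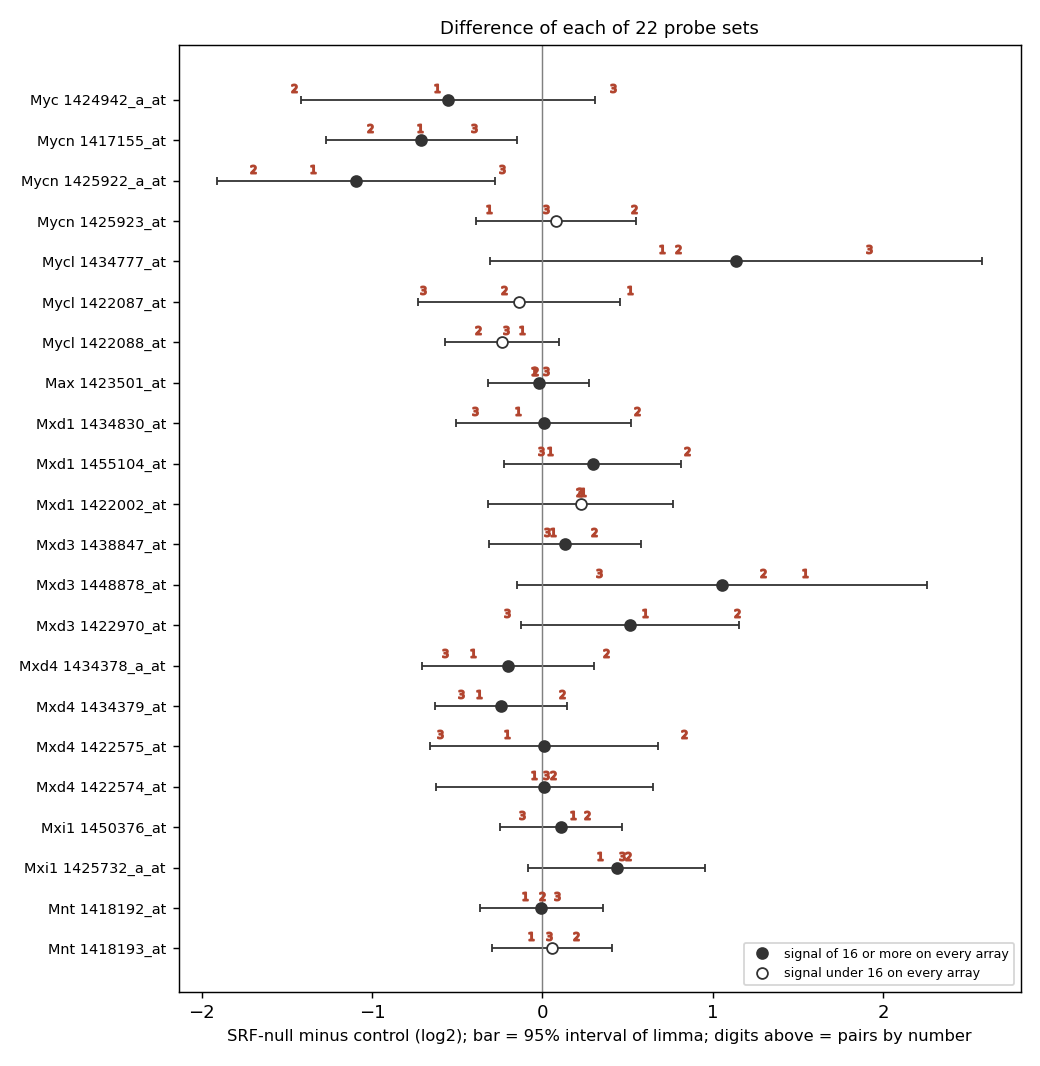
Difference of each of the 22 member probe sets (SRF-null minus control, log2) with its 95% interval from limma, and the differences within replicate numbers 1 to 3 as digits above. Open circles mark probe sets under a signal of 16 on every array. Only the intervals of the 2 measurable Mycn probe sets lie wholly on 1 side of 0.

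The pathway around these factors was followed in gene lists, each gene by its brightest probe set, beside all 18193 genes, of which 8849 were higher and 9344 lower, with a median of -0.01. In every list 0 genes passed the adjusted threshold. Genes that MYC activates in ribosome biogenesis, polyamine and nucleotide synthesis and growth were lower in SRF-null cells in 43 of 45 measured cases, by small amounts, with a median of -0.10. The rRNA methyltransferase gene Nop2 differed by -0.39 (SE 0.16), the ribosome biogenesis genes Bop1 by -0.65 (SE 0.27) and Rcl1 by -0.38 (SE 0.17), and the helicase gene Ddx18 by -0.26 (SE 0.15). The array medians of this list, set against the control mean of each gene, were -0.15, -0.23 and 0.01 on SRF-null arrays 1 to 3, and -0.13, 0.12 and 0.04 on control arrays 1 to 3. The groups overlapped, since SRF-null replicate 3 lay above control replicate 1. Within the numbered pairs SRF-null lay far below control in pair 2 alone, and the values lay close together in pairs 1 and 3. SRF-null replicates 1 and 2 lay below every control array, replicate 1 by little. The count of lower genes was 33 of 45 without control replicate 2 and 29 of 45 without both single-sex arrays, with medians of -0.04 and -0.05. The median was -0.22 without control replicate 1, -0.17 without SRF-null replicate 3 and -0.06 without SRF-null replicate 2. The members of this list vary together, so their number is not a number of independent observations.

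Genes that MYC represses had 8 of 10 members higher, with a median of 0.04, but the members with the largest differences pointed in opposite directions. Without both single-sex arrays 4 of 10 were higher, with a median of -0.017, and after median centring 6 of 10. Ndrg1, a stress- and differentiation-associated gene known to be repressed by MYC and MYCN, was at 16.39, 16.46 and 16.15 on SRF-null arrays, against 14.82, 14.19 and 15.01 on control arrays. Every SRF-null array lay above every control array by more than 1 log2 unit. The difference was 1.66 (SE 0.24, 3.15-fold), with an unadjusted limma p of 0.000499 and an adjusted p = 0.898. Its other 4 probe sets differed by 1.72 to 2.15, also without overlap. The cell cycle inhibitor genes Cdkn1a (0.16, SE 0.31) and Cdkn1b (0.05, SE 0.13) differed by less than their standard errors. Thbs1, the thrombospondin gene, was at 4.98, 11.90 and 7.67 on SRF-null arrays 1 to 3, against 9.16, 13.24 and 11.57 on control arrays 1 to 3. It was lower in SRF-null cells within each numbered pair although the groups overlapped, and the difference was -3.14 (SE 1.92, limma adjusted p = 1). Its unadjusted limma p was 0.153 in the unpaired fit and 0.00587 with the replicate block, under which 0 probe sets of the array passed after adjustment. Ndrg2 differed by -0.88 (SE 0.57) and Clu by 0.64 (SE 0.56), both with overlapping groups.

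Coactivators that MYC recruits had 12 of 15 genes lower, with a median of -0.12. It was 9 of 15 without SRF-null replicate 2 and also without control replicate 1, with medians of -0.047 and -0.066. Without SRF-null replicate 3 it was 11 of 15 with a median of -0.19. The count was 13 of 15 without SRF-null replicate 1 and also without control replicate 3, with medians of -0.16 and -0.085. Without both single-sex arrays it was 14 of 15 with a median of -0.14. The histone acetyltransferase gene Kat2a was at 13.25 ± 0.28 in SRF-null and 13.91 ± 0.22 in control cells (SD, n = 3 each), a difference of -0.66 (SE 0.20), and the elongation kinase gene Cdk9 differed by -0.31 (SE 0.13). The groups did not overlap in either. Ep400 (-0.27, SE 0.16) and Ruvbl1 (-0.23, SE 0.14), which belong to chromatin remodelling complexes, overlapped. The SIN3 and histone deacetylase corepressors used by the antagonists had 7 of 11 genes lower, with a median of -0.04. This was 5 of 11 without SRF-null replicate 3 or without control replicate 1, with medians of 0.0073 and 0.0042. The direction thus did not hold when either of these arrays was left out. Hdac2 (-0.25, SE 0.16), Sap30 (-0.22, SE 0.18), Rbbp7 (-0.07, SE 0.12) and Suds3 (0.10, SE 0.17) had the smallest p among them.

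Genes that set the stability of the MYC protein were split, with 9 higher and 10 lower of 19 and a median of -0.04, which was 0.045 without SRF-null replicate 1 and 0.029 without control replicate 3. Cip2a, whose product protects MYC from a phosphatase, was at 14.18 ± 0.09 in SRF-null and 13.75 ± 0.18 in control cells (SD, n = 3 each), a difference of 0.43 (SE 0.14). Trpc4ap, an adaptor of a ubiquitin ligase for MYC, differed by -0.51 (SE 0.16) and the ubiquitin ligase gene Stub1 by -0.24 (SE 0.12). In these 3 genes the groups did not overlap, and Plk1 (0.50, SE 0.38) did. The wider network around MLX and MGA had 3 of 9 genes higher, with a median of -0.03. This was 6 of 9 with a median of 0.051 without control replicate 1, and 5 of 9 with a median of 0.046 without SRF-null replicate 3. Tfap4 differed by 0.16 (SE 0.12), Mlx by -0.18 (SE 0.15), Zbtb17 by 0.17 (SE 0.26) and Mlxipl by -0.11 (SE 0.22). Among 8 related E-box factors outside the network 6 were lower, with a median of -0.05. This was 3 of 8 with a median of 0.067 without SRF-null replicate 3, and 4 of 8 without control replicate 3. Tfec, a factor of the MITF family, differed by -0.72 (SE 0.18, limma adjusted p = 0.999) without overlap, and Usf1 (-0.14, SE 0.20), Usf2 (0.09, SE 0.13) and Srebf2 (-0.06, SE 0.20) by less than their standard errors.

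**Figure D4:**
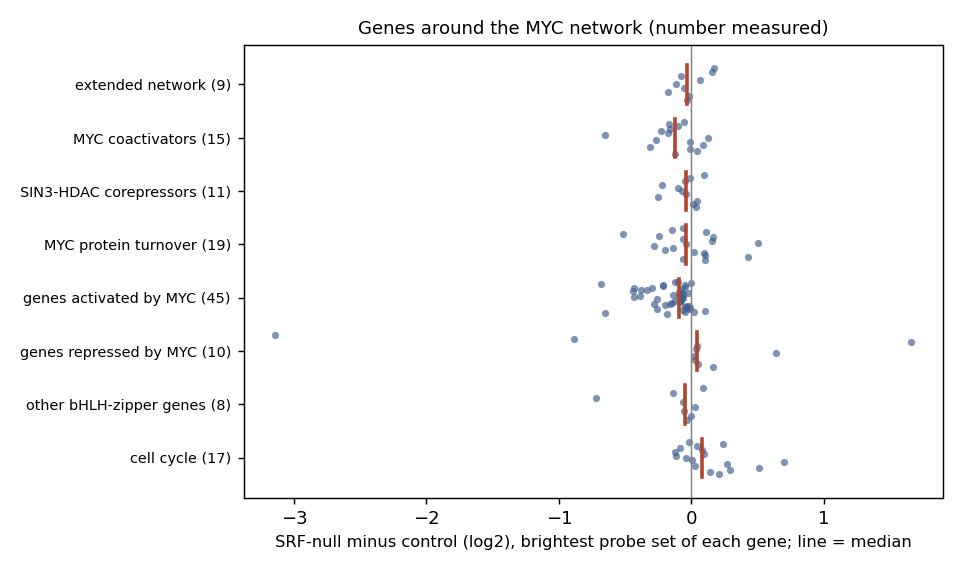
Difference of each measured gene (SRF-null minus control, log2, brightest probe set) in 8 lists around the MYC network. Points are genes and the line is the list's median. Genes activated by MYC lie mostly just left of 0 with a median of -0.10, and Ndrg1, at 1.66, is the rightmost point among genes repressed by MYC.

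Genes whose levels followed those of a member most closely over the 6 arrays were taken from 10760 other genes with a mean level of at least 8. Plekha5, Ttll4 and Matk were nearest to Mycn (Pearson r of 0.987, 0.987 and 0.981), Samd11, Nop10 and Tex261 to Myc (0.989, 0.986 and 0.985), and Rbks, Gpld1 and Prg2 to Mxd3 (0.997, 0.988 and 0.988). With 6 arrays that share 2 genotypes, r exceeded 0.9 for 92 genes with Mycn, 123 with Myc and 129 with Mxd3, so these names are a description only.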

How the data were processed

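The members and gene lists were chosen with earlier results of these data known. For each array the deposited values are linear-scale intensities, 1 for every probe set. The labels do not say how the authors obtained these intensities. Per the labels' protocols, 30 ng of RNA was amplified and biotin-labelled. The series description and the platform annotation name different array types, and the table was used as it stands.

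After 64 Affymetrix controls were left out, 34945 probe sets named 1 gene, 932 several and 9160 none, and 34741 matched a RefSeq gene (GRCm38.p6). Values were converted to log2(value + 16), quantile normalized and fitted with limma 3.58.1 in R 4.3.3 (genotype as the only term). The fit was tested on simulated data. No detection calls were used; a signal under 16 is called dim. Precision is limited by having 3 arrays a group. The text names all members, Srf and the up to 4 genes of smallest p in each list. It also names the 3 genes most like Myc, Mycn and Mxd3. Marker and sex-linked genes, Cdkn1a, Cdkn1b and the other Ndrg1 probe sets were chosen after their values were seen. So were the cell cycle genes of larger p. Arrays of equal replicate number were treated as pairs because their deviations from the group means correlated, at 0.473, 0.210 and 0.427 over all probe sets. The labels state no pairing. Figures used matplotlib 3.10.9.
Alternatives were median centring, no further normalization, offsets of 1 and 64, a trended robust variance, the replicate block, 1 probe set per gene, only probe sets above the median level, and leaving out each array or both single-sex arrays.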

Additional observations from a re-analysis of the deposited data

How the results depend on the processing

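In the 15 alternatives 0 member probe sets passed an adjusted p of 0.05 in limma. Over the array the count was 1 after median centring (Mocs1) and 1 without control replicate 2 (Ccnb1ip1), and 0 in the other 13. By unadjusted p the members' count was 0 to 5, against 2 in the fit reported. The replicate number as a block raised it to 5, and leaving out both single-sex arrays gave 0. The signs of 14 member probe sets held in every alternative run, including the 2 measurable Mycn probe sets (-0.92 to -0.51 and -1.34 to -0.83), Myc, the measurable Mycl probe set and all of Mxd3. The other 8 turned. Median centring gave -0.047 for the brightest Mxd1 probe set and -0.023 and -0.025 for the 2 dimmer Mxd4 probe sets, and no further normalization gave -0.026, -0.0024 and -0.0042. Without both single-sex arrays they were -0.16, -0.14 and -0.066, and the bright Mnt probe set was at 0.046. Leaving out 1 array at a time, ranges were -0.14 to 0.15 for that Mxd1 probe set, -0.22 to 0.19 and -0.19 to 0.20 for these Mxd4 probe sets, -0.11 to 0.049 for Mnt and -0.057 to 0.023 for Max. For dim probe sets they were -0.038 to 0.23 for Mycn, -0.35 to 0.0061 for Mycl and -0.032 to 0.13 for Mnt. The cause was not tested. Of genes activated by MYC, 29 to 44 were lower across the alternatives. With 3 arrays a group, differences of the size seen for Max or Mnt could not be told from 0. The larger differences of Mycn, Mycl and Mxd3 did not pass adjustment in any alternative either.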
